A study of Homo sapiens with 15 samples.

Results

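Synaptotagmins are membrane proteins with a pair of C2 domains, which in many members bind calcium and phospholipid and so tie the fusion of vesicles with the plasma membrane to a calcium signal. Best known from neurons and endocrine cells, they work with the SNARE proteins that join vesicle and target membrane. The family divides into calcium sensors, such as SYT1, SYT2 and SYT7, and atypical members such as SYT4 and SYT11, whose first C2 domain lacks part of the calcium-binding site. SYT4 is carried on dense-core vesicles, which hold peptides rather than classical transmitters. Described here are 10 synaptotagmin genes, SYT1, SYT2, SYT3, SYT4, SYT5, SYT7, SYT11, SYT12, SYT13 and SYT17, of 20806 gene entries in the tables of 15 libraries. They were found by symbol. SYT4 was singled out because its level differed between the knockout and the control, so its levels in that contrast are a description and carry no test. Of the 10 genes, 6 had enough reads to be tested, and SYT1, SYT5, SYT11 and SYT12 did not.

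The libraries came from C4-2, a castration-resistant line of human prostate cancer, in 5 forms with 3 libraries each. Lines KO_S404A, KO_S47A and KO_WT are the knockout of PNPLA2 with an ATGL protein put back, carrying the change S404A, the change S47A, or no change. KO is the knockout without an added protein, and Scramble is the control line. PNPLA2 encodes ATGL, the lipase that starts the breakdown of stored triglyceride, and S47 is its catalytic serine. All 5 lines were kept in 5 mM glucose with 5% dialyzed serum, and polyadenylated RNA was sequenced. Each genotype is 1 line. The promoter of the added protein, and whether a line is a clone or a pool, were not stated in the sources used here. The labels do not call the 3 libraries separate cultures, so the p-values reflect the spread among these libraries, and that spread may be technical.

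Counts in genes totalled 40846694 to 64345775 per library. Levels are given in CPM, counts scaled to library size with TMM factors, as mean ± SD over the 3 libraries of a line. PNPLA2 itself averaged 413 ± 98.3 CPM in KO_S404A, 129 ± 30.6 CPM in KO_S47A, 220 ± 18.1 CPM in KO_WT, 11.3 ± 1.99 CPM in KO and 48.9 ± 4.76 CPM in Scramble, which follows the labels. The prostate markers were present in every library, with KLK3, the gene of prostate-specific antigen, at 1830 to 3535 CPM. The neuroendocrine regulators INSM1 and NEUROD1 had no count in any library.

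SYT4 was high in the Scramble line and low in every line with the PNPLA2 knockout, with or without an added protein. It stood at 0.612, 0.735 and 1.03 CPM in KO_S404A (libraries 1, 2 and 3), at 0.852, 0.788 and 1.21 CPM in KO_S47A, and at 0.711, 0.885 and 1.53 CPM in KO_WT. It stood at 0.267, 0.486 and 0.655 CPM in KO, against 36.3, 35.2 and 24.2 CPM in Scramble. No library of the 4 other lines came near the lowest Scramble library. The counts behind these levels were 13, 27 and 35 in KO, against 1449, 1702 and 1236 in Scramble, so the gene was still detected in all 15 libraries. In these bulk samples, fewer cells expressing the gene and less RNA per cell cannot be told apart.

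Shown next is the stretch of 250 bases before the annotated start of SYT4 on chromosome 18, printed because SYT4 is the member whose level separates the lines. It is from RefSeq, build GRCh38.p14, chr18:43277491-43277740, minus strand, read 5′ to 3′, and the capitals mark the 2 matches to the E-box CANNTG, the core bound by helix-loop-helix factors.
SYT4 promoter: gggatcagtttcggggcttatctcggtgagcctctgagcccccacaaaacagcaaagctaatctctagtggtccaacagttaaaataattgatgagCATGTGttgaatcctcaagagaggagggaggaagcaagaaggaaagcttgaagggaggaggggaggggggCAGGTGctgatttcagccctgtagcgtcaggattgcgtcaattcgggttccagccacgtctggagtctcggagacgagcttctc
The window holds 8 CpG dinucleotides, against a median of 11 over 35116 such windows, and 43.7% of the windows hold fewer. Its GC content is 52.8%. Both strands were searched for each motif. At least 1 E-box was present in 61.8% of all windows. The androgen receptor half-site AGAACA (in 12.4% of windows), the PPAR direct repeat (AGGTCA, any 1 base, AGGTCA; 0.0171%), the cyclic AMP response element TGACGTCA (1.65%) and the GC box GGGCGG (42.6%) had no match in these letters. The table of promoters held an entry for 6 of the 10 members.

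As a fitted difference, SYT4 was lower in KO than in Scramble by a log2 fold change of -6.07 (SE 0.37), which is 67.1-fold. Relative to Scramble the log2 fold change was -5.33 in KO_S404A (SE 0.35), -5.07 in KO_S47A (SE 0.34) and -4.93 in KO_WT (SE 0.34). These 4 differences share the Scramble libraries. Among the 14246 genes tested, SYT4 ranked 10 by the size of the log2 fold change in KO minus Scramble, 11 in KO_S404A minus Scramble, 9 in KO_S47A minus Scramble and 15 in KO_WT minus Scramble.

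Of the tested members other than SYT4, none was called in any comparison with Scramble (edgeR quasi-likelihood test, Benjamini-Hochberg adjusted p under 0.05 over all genes tested). The share of all tested genes called was 2.69% in KO minus Scramble, 3.11% in KO_S404A minus Scramble, 3.82% in KO_S47A minus Scramble and 3.47% in KO_WT minus Scramble. Ranges that do not overlap, as those of SYT4, were found for 20.7% of tested genes in KO minus Scramble, 18.2% in KO_S404A minus Scramble, 25% in KO_S47A minus Scramble and 23.1% in KO_WT minus Scramble. SYT4 was chosen by its KO minus Scramble difference, so no call is given for it in the comparisons that share the Scramble libraries. With the replicate number as a block, KO minus Scramble called SYT17, and 8.29% of all tested genes. Leaving SYT4 aside, the block called no member in KO_S47A minus Scramble and KO_WT minus Scramble, where it called 19.5% and 10% of all tested genes. Libraries with the same number gave a smaller difference at number 3. The KO minus Scramble log2 ratio was -7.08, -6.18 and -5.21 for numbers 1, 2 and 3. Library 3 had the highest SYT4 level of each of the other 4 lines and the lowest of Scramble.

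**Figure D1:**
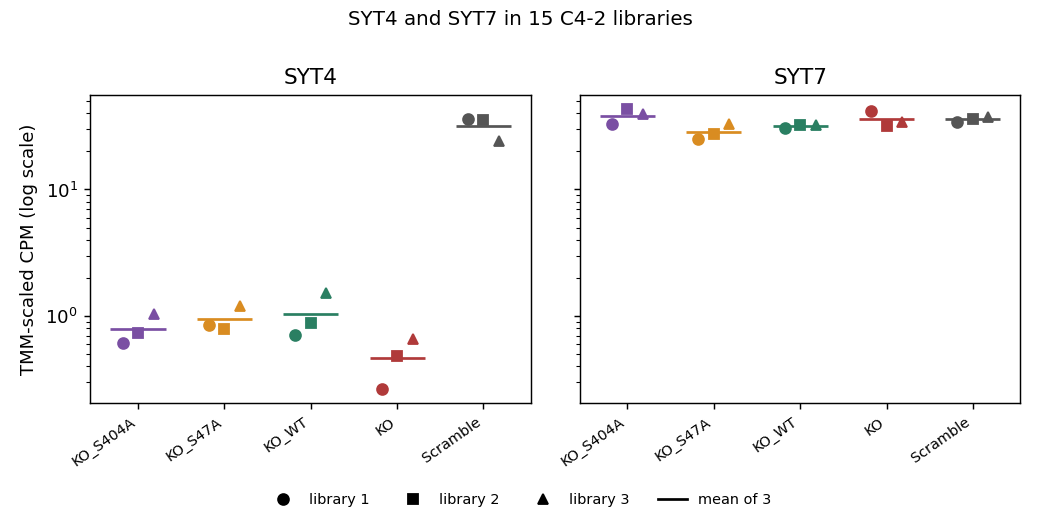
Levels of SYT4 and SYT7 in each of the 15 libraries, in CPM on a log axis, with the lines in the order KO_S404A, KO_S47A, KO_WT, KO and Scramble. SYT4 lies at 24.2 CPM or more in the Scramble libraries and at 1.53 CPM or less in all others, while SYT7 lies between 25.1 and 43.0 CPM throughout.

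Adding an ATGL protein left SYT4 far below Scramble, and the lines with an added protein did not separate from each other. SYT4 averaged 0.794 ± 0.217 CPM in KO_S404A, 0.950 ± 0.228 CPM in KO_S47A, 1.04 ± 0.433 CPM in KO_WT, 0.469 ± 0.194 CPM in KO and 31.9 ± 6.71 CPM in Scramble. All 3 libraries of KO_S47A and of KO_WT lay above all 3 of KO, and those of KO_S404A overlapped with KO. Such separation was found for 21.9% of tested genes in KO_S47A minus KO and 15.5% in KO_WT minus KO. The log2 fold change against KO was 0.74 in KO_S404A (SE 0.36), 1.00 in KO_S47A (SE 0.36) and 1.14 in KO_WT (SE 0.36). These rest on the KO libraries in which SYT4 was chosen, so they too are given as a description.

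The comparisons among the 3 lines with an added protein use neither KO nor Scramble, so SYT4 was tested there. Its log2 fold change was -0.14 in KO_S47A minus KO_WT, with an interval of -0.86 to 0.58 at 95% (edgeR adjusted p = 0.998). It was -0.40 in KO_S404A minus KO_WT, with an interval of -1.13 to 0.32 (edgeR adjusted p = 0.77), and -0.27 in KO_S404A minus KO_S47A, with an interval of -0.99 to 0.46 (edgeR adjusted p = 0.815). No difference in SYT4 between the lines with the S47A, the S404A and the wild-type protein was detectable at this spread.

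SYT7, a slow calcium sensor with high affinity that also acts in the fusion of lysosomes with the plasma membrane, was well expressed in all 5 lines. It stood at 32.7, 43.0 and 39.3 CPM in KO_S404A, at 25.1, 27.7 and 32.9 CPM in KO_S47A, and at 30.6, 32.3 and 32.1 CPM in KO_WT. It stood at 41.8, 31.6 and 34.1 CPM in KO, against 34.1, 35.9 and 37.5 CPM in Scramble. KO and Scramble overlapped, and their means were 35.8 ± 5.31 CPM in KO and 35.8 ± 1.68 CPM in Scramble. The fitted log2 fold change between them was 0.00 in size (SE 0.13), against -6.07 for SYT4.

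The lowest SYT7 mean was 28.5 ± 3.99 CPM in KO_S47A and the highest 38.4 ± 5.22 CPM in KO_S404A. Between these lines the log2 fold change was 0.43 in KO_S404A minus KO_S47A, with an interval of 0.15 to 0.71, which did not pass after adjustment over all genes (edgeR unadjusted p = 0.00561, adjusted p = 0.679). The libraries of KO_S404A and KO_S47A overlapped narrowly, at 32.7 CPM in KO_S404A and 32.9 CPM in KO_S47A. Those of KO_S404A and KO_WT did not overlap, as for 10% of all tested genes, and the log2 fold change of 0.28 did not pass either (edgeR adjusted p = 0.572). Against KO, SYT7 differed by a log2 fold change of -0.33 in KO_S47A (edgeR adjusted p = 0.277) and -0.18 in KO_WT (edgeR adjusted p = 0.651), neither of which passed. Against Scramble it was 0.10 in KO_S404A (edgeR adjusted p = 0.796), -0.33 in KO_S47A (0.187) and -0.18 in KO_WT (0.599). All SYT7 libraries of KO_S47A and of KO_WT lay below those of Scramble, without a call.

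In the 6 comparisons without Scramble, edgeR called 0 of the 6 tested members. The share of all tested genes called was as low, at 0.0211% in KO_S404A minus KO, 0.00702% in KO_S47A minus KO and 0.0281% in KO_WT minus KO. It was 0.00702% in KO_S404A minus KO_S47A and 0% in both KO_S404A minus KO_WT and KO_S47A minus KO_WT. DESeq2 also called 0 members in these 6 comparisons. At an unadjusted p under 0.05, edgeR counted 2 members in KO_WT minus KO, against 7.58% of all tested genes, and 2 in KO_S47A minus KO, against 16.8%. In both, 1 of the 2 was SYT4, chosen with the KO libraries, and the others were SYT17 in KO_WT minus KO and SYT7 in KO_S47A minus KO. The count was 1 in KO_S404A minus KO_S47A, against 6.59% of all tested genes, and 0 in the other 3 comparisons. With the replicate number as a block, KO_S47A minus KO called 22.1% of all tested genes, against 0.00702% without the block, and 1 of the 6 members, SYT4. The block called 0 members in the other 5 comparisons without Scramble, where at most 0.105% of all tested genes were called.

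**Figure D2:**
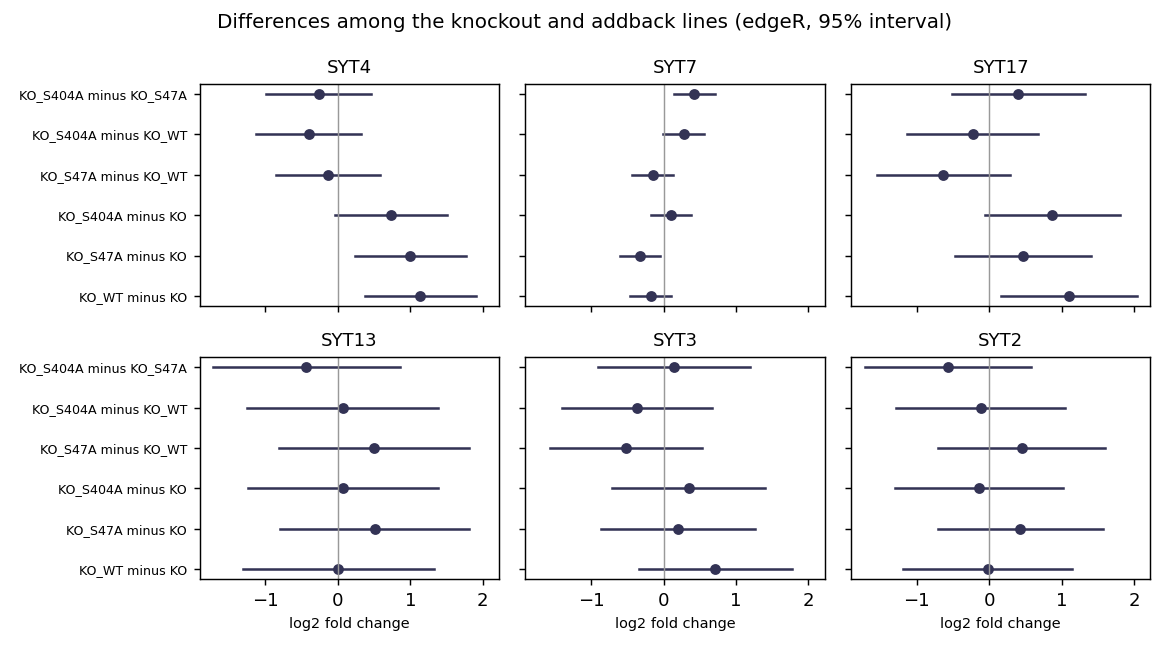
Fitted log2 fold changes of the 6 tested members in the 6 comparisons that leave out Scramble, with 95% intervals as bars and no change at the vertical line. The intervals of SYT7 are narrow, within 0.71 of no change, and those of the members with few reads are wide.

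SYT17, an atypical member that lacks the membrane-spanning segment of most synaptotagmins, had a mean between 0.589 and 1.28 CPM in the 5 lines. It stood at 1.55, 1.01 and 0.683 CPM in KO_S404A, at 1.13, 0.750 and 0.565 CPM in KO_S47A, and at 1.49, 1.51 and 0.809 CPM in KO_WT. It stood at 0.658, 0.793 and 0.318 CPM in KO, against 0.901, 1.76 and 1.17 CPM in Scramble. The KO libraries lay below all those of KO_WT and of Scramble. In the 4 lines other than Scramble, library 3 was the lowest, whereas for SYT4 it was the highest. The log2 fold change in KO minus Scramble was -1.12 (SE 0.44), and is given without a test. As stated above, the replicate block turns it into a call there. In KO_WT minus KO it was 1.10 (SE 0.44), which did not pass (edgeR adjusted p = 0.625). Such separation is common among all tested genes, as given for SYT4.

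SYT17 did not differ detectably from Scramble in the lines with an added protein. The log2 fold change against Scramble was -0.24 in KO_S404A (edgeR adjusted p = 0.856), -0.65 in KO_S47A (edgeR adjusted p = 0.434) and -0.02 in KO_WT (edgeR adjusted p = 0.994). The counts per library ran from 17 to 96, and the SE of 0.42 to 0.43 in these comparisons limits what could be seen.

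SYT13, an atypical member without calcium binding, SYT3, a calcium sensor with high affinity, and SYT2, a fast sensor of transmitter release, were sparse but present in all 15 libraries. SYT13 averaged 0.431 CPM in KO_S404A, 0.580 CPM in KO_S47A, 0.408 CPM in KO_WT, 0.409 CPM in KO and 0.324 CPM in Scramble, on 3 to 41 counts per library. SYT3 averaged 0.427 CPM in KO_S404A, 0.385 CPM in KO_S47A, 0.553 CPM in KO_WT, 0.336 CPM in KO and 0.267 CPM in Scramble, on 6 to 42 counts. None of the 3 was called in any of the 10 comparisons. SYT2 averaged 0.263 CPM in KO_S404A, 0.384 CPM in KO_S47A, 0.281 CPM in KO_WT, 0.284 CPM in KO and 0.293 CPM in Scramble, on 7 to 26 counts. The widest gap from Scramble among them was that of SYT3 in KO_WT, with a log2 fold change of 1.05 and an interval of -0.04 to 2.13.

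**Figure D3:**
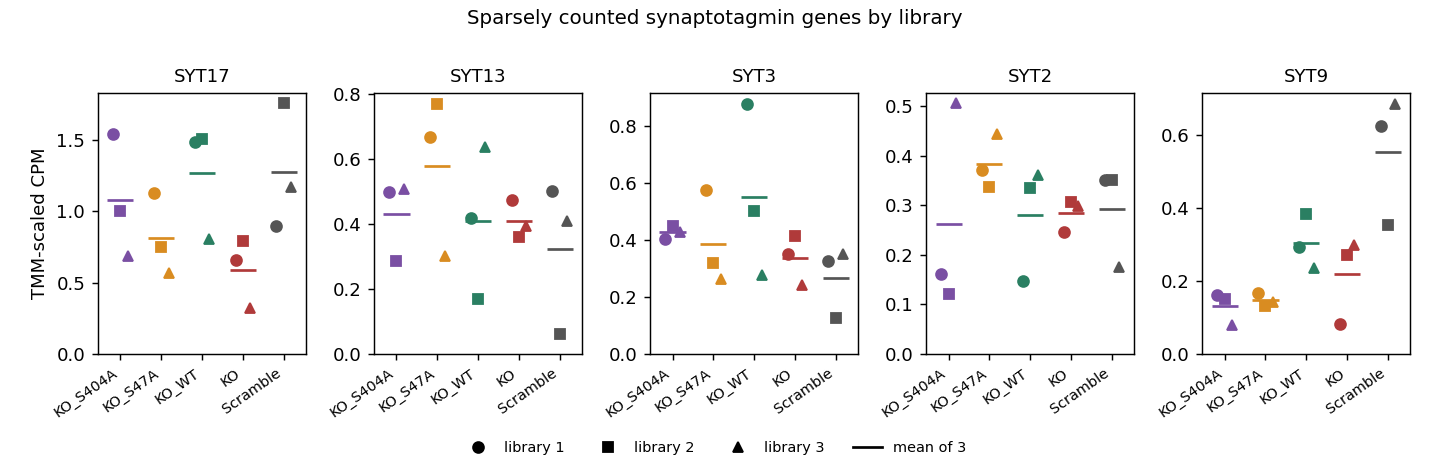
Levels of the members SYT17, SYT13, SYT3 and SYT2, and of SYT9, which is not a member, in each library, in CPM. The lines are in the order KO_S404A, KO_S47A, KO_WT, KO and Scramble. SYT17 reaches 1.76 CPM in a Scramble library.

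The 4 members with too few reads to test gave counts near the limit of detection. SYT12, an atypical member, had 24 counts over the 3 libraries of KO_S404A (exact 95% Poisson interval 15.4 to 35.7), 19 in KO_S47A, 21 in KO_WT and 16 in KO, against 4 in Scramble (1.09 to 10.2). SYT5, a calcium sensor, had 17 counts in KO_S404A, 15 in KO_S47A, 32 in KO_WT (21.9 to 45.2) and 9 in KO, against 6 in Scramble (2.20 to 13.1). These intervals cover counting error only. For both genes the sums, which are not scaled to library size, were lowest in Scramble, and no test was made. The libraries of KO and Scramble overlapped in both. SYT12 had 3, 2 and 11 counts in KO, against 1, 2 and 1 in Scramble, and SYT5 had 7, 1 and 1 in KO, against 3, 2 and 1. Of the 32 SYT5 counts in KO_WT, 19 came from library 1. SYT1, the fast sensor of the synapse, and SYT11, an atypical member close to SYT4, had 29 counts each over all 15 libraries. They were at 0 in 7 and 5 of the 15 libraries.

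**Figure D4:**
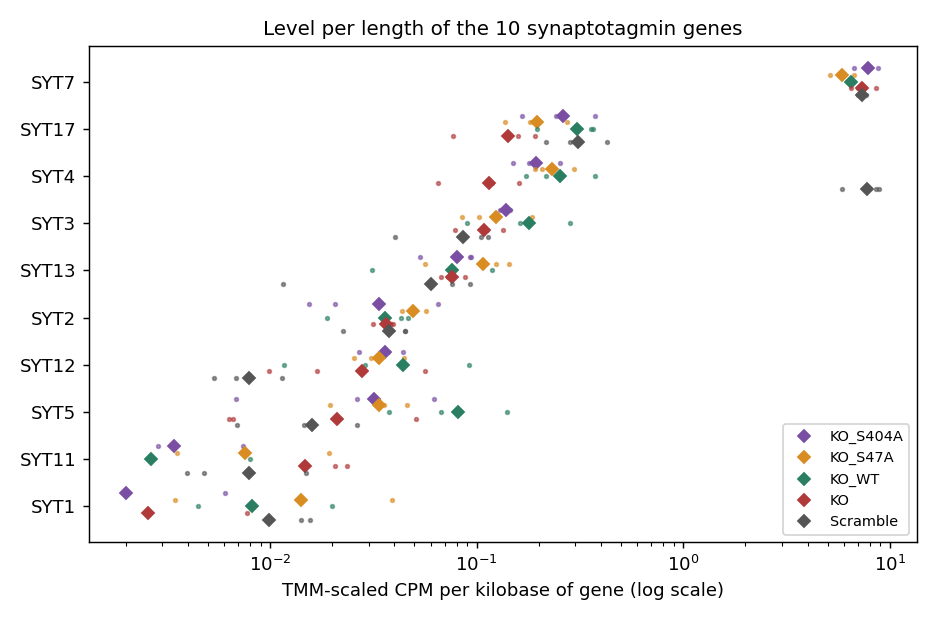
Level per kilobase of gene length of each of the 10 members by line, in CPM per kilobase on a log axis. Diamonds are the line means and small points the libraries, and libraries at 0 are not drawn. SYT4 and SYT7 stand above the others in Scramble, and SYT7 alone does so in the other 4 lines.

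Divided by gene length, which allows genes to be compared, SYT4 and SYT7 were the leading synaptotagmin transcripts of the Scramble line. In Scramble, SYT4 had a mean of 7.79 ± 1.64 CPM per kilobase and SYT7 7.34 ± 0.34 CPM per kilobase, and their libraries overlapped, so their order is not resolved. Among the members, SYT17 followed at 0.309 ± 0.106 CPM per kilobase and SYT3 at 0.0863 ± 0.0402, and these did not overlap. SYT15, which is not a member, stood at 0.214 ± 0.0638 in Scramble and overlapped with SYT17. SYT3, SYT13 and SYT2 overlapped with one another, and SYT5, SYT1, SYT12 and SYT11 were lowest and not separable.

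Among the members in KO, SYT7 led alone with 7.33 ± 1.09 CPM per kilobase. SYT17 at 0.142 ± 0.0591, SYT4 at 0.115 ± 0.0475 and SYT3 at 0.108 ± 0.0279 followed and overlapped. SYT15, which is not a member, stood at 0.288 ± 0.0705 CPM per kilobase in KO, with all libraries above those of SYT17, SYT4 and SYT3. Added over the 10 members, the level was 7.57 to 9.51 CPM per kilobase in KO_S404A, 6.02 to 7.46 in KO_S47A, 7.36 to 7.59 in KO_WT and 7.05 to 9.10 in KO, against 14.1 to 16.5 in Scramble. SYT4 made up 0.717% to 5.02% of that sum in the libraries of the other 4 lines, against 41.9% to 54.2% in Scramble. SYT7 made up 85.2% to 93.9% in the other 4 lines, against 42.7% to 54.4% in Scramble.

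The tables hold 8 further entries named as synaptotagmins. SYT9, a calcium sensor of dense-core and synaptic vesicles, averaged 0.130 CPM in KO_S404A, 0.146 CPM in KO_S47A, 0.303 CPM in KO_WT, 0.217 CPM in KO and 0.554 CPM in Scramble. It fell in KO_S404A relative to Scramble by a log2 fold change of -2.06 (SE 0.49, edgeR adjusted p = 0.0393), and in KO_S47A by -1.90 (SE 0.50, edgeR adjusted p = 0.04996). Both calls were lost whenever any 1 of the 6 libraries was left out, with adjusted p of 0.0503 to 0.141 in KO_S404A minus Scramble and 0.0608 to 0.19 in KO_S47A minus Scramble. With the replicate block both were kept (edgeR adjusted p = 0.0254 and 0.0248), where the block called 10.7% and 19.5% of all tested genes. The log2 fold change of -0.87 in KO_WT did not pass (edgeR adjusted p = 0.431). SYT15 averaged 1.45 CPM in KO_S404A, 1.60 CPM in KO_S47A, 1.57 CPM in KO_WT, 1.45 CPM in KO and 1.08 CPM in Scramble and was not called. SYT6, SYT8, SYT10 and SYT14 had 5, 4, 3 and 1 counts in all, and SYT14L and SYT16 had none.

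Genes of proteins that work beside synaptotagmins were examined by list. A list of related proteins, most of which carry C2 domains (synaptotagmin-like, extended synaptotagmin, DOC2 and similar), is called here the related C2 proteins. Of these, 13 of 15 in the tables were tested. In KO minus Scramble 0 rose and 1 fell, against 0.969% and 1.72% of all tested genes, and the median log2 fold change was -0.05, against 0.02 over all genes. The gene that fell was SYTL2, a Rab27 effector of granule docking, at 18.7 CPM in KO, against 29.2 CPM in Scramble (log2 fold change -0.65, SE 0.15, edgeR adjusted p = 0.0404). SYTL2 also fell in KO_S47A relative to Scramble (log2 fold change -0.65, edgeR adjusted p = 0.0328). DESeq2 also called SYTL2 in KO minus Scramble (DESeq2 adjusted p = 0.00396), where it called 4.84% of all tested genes. The replicate block called SYTL2 lower than Scramble in KO_S404A, KO_S47A, KO_WT and KO. The block called 10.7%, 19.5%, 10% and 8.29% of all tested genes there. Without the block, both edgeR calls of SYTL2 were lost in 5 of 6 fits that left out 1 library. DOC2A, a calcium sensor of spontaneous release, rose in KO_WT relative to Scramble, at 6.77 CPM in KO_WT, against 4.02 CPM in Scramble (log2 fold change 0.75, edgeR adjusted p = 0.0176), a call lost in 2 of 6 such fits.

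Of the SNARE proteins and their regulators, 35 of 44 in the tables were tested. In KO minus Scramble 1 rose and 1 fell, against 0.969% and 1.72% of all tested genes. The median log2 fold change was 0.00, against 0.02 over all genes. RIMS3, a protein of the release site, rose at 4.22 CPM in KO, against 2.19 CPM in Scramble (log2 fold change 0.95, SE 0.17, edgeR adjusted p = 0.00843). It also rose relative to Scramble in KO_S404A (log2 fold change 0.96, edgeR adjusted p = 0.00688) and KO_S47A (log2 fold change 0.89, edgeR adjusted p = 0.0111). Its calls in KO and KO_S404A held without any 1 library, and that in KO_S47A was lost in 2 of 6 such fits. STX3, a target-membrane SNARE of epithelial cells, fell at 65.6 CPM in KO, against 91.2 CPM in Scramble (log2 fold change -0.48, edgeR adjusted p = 0.0210), a call lost in 5 of 6 such fits. It also fell in KO_S404A relative to Scramble (log2 fold change -0.47, edgeR adjusted p = 0.0231), a call lost in 4 of 6. With the replicate block, 4 genes of the list rose in KO minus Scramble (RIMS1, RIMS3, STX2 and SV2C) and 2 fell (SNAP29 and STX3), where the block called 8.29% of all tested genes.

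Further genes of the SNARE list were called in the lines with an added protein. Against Scramble, 2 of the 35 tested rose and 2 fell in KO_S404A, 2 rose and 1 fell in KO_S47A, and 2 fell in KO_WT. The share of all tested genes called was 3.11% in KO_S404A, 3.82% in KO_S47A and 3.47% in KO_WT. SNAP29, a SNARE of autophagosome fusion, fell relative to Scramble with log2 fold changes of -0.36 in KO_S404A (edgeR adjusted p = 0.0245), -0.39 in KO_S47A (0.0153) and -0.34 in KO_WT (0.0306). SV2C, a vesicle glycoprotein, rose to 0.460 CPM in KO_S404A and 0.381 CPM in KO_S47A, against 0.114 CPM in Scramble (log2 fold changes 1.98 and 1.72, edgeR adjusted p = 0.0172 and 0.0349). RAB3D, a GTPase of secretory granules, fell in KO_WT, with a log2 fold change of -0.45 (edgeR adjusted p = 0.0185). Each of these calls was lost in 3 to 5 of 6 fits that left out 1 library. With the replicate block, 4 genes of the list rose and 4 fell in KO_S47A minus Scramble, where the block called 19.5% of all tested genes. In KO_WT minus Scramble 5 rose and 4 fell with the block, against 10% of all tested genes. Of the related C2 proteins, 4 rose and 2 fell in KO_S47A minus Scramble with the block.

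Of 17 genes for dense-core vesicle cargo and its processing, 8 were tested and edgeR called 0 in KO minus Scramble. There, 2 had an unadjusted p under 0.05, against 12.8% of all tested genes, and DESeq2 called 1, against 4.84%. With the replicate block, which called 8.29% of all tested genes, 2 fell, CPE and PAM, enzymes that mature peptide cargo. The median log2 fold change was -0.21, against 0.02 over all genes. Summed over the list, the level was 67.2 to 79.9 CPM in KO_S404A, 79.9 to 85.5 in KO_S47A, 79.1 to 87.1 in KO_WT and 74.0 to 81.4 in KO, against 91.7 to 96.2 CPM in Scramble, so Scramble stood above all other libraries. The largest parts of the sum were CPE and CADPS2, with medians of 44.3 and 19.5 CPM over all libraries. Among single genes, 18.2% to 25% of those tested did not overlap with Scramble, by comparison. Without the block, the one gene of the list that edgeR called in any comparison was VGF, a secreted neuropeptide precursor. It stood at 2.35 CPM in KO_S47A, against 4.26 CPM in Scramble (log2 fold change -0.86, edgeR adjusted p = 0.0488), a call lost in 5 of 6 fits that left out 1 library. Relative to Scramble, DESeq2 called 1 gene lower in KO_S404A, 1 in KO_S47A and 2 in KO_WT. Its share of all tested genes called was 6.28%, 7.67% and 6.09%. With the block 2 fell in each, CADPS2 and CPE in KO_S404A, PAM and VGF in KO_S47A, and CADPS2 and VGF in KO_WT. The block called 10.7%, 19.5% and 10% of all tested genes there. The granins that fill such vesicles were close to 0, with CHGB at 0 in every library and CHGA at 5 counts at most. Of the SNAREs, SNAP25, the neuronal one, had at most 10 counts in any library, whereas SNAP23, its counterpart outside neurons, lay at 56.2 to 82.8 CPM. In the 6 comparisons without Scramble edgeR called 0 genes of the 3 lists, as did DESeq2. At an unadjusted p under 0.05 were 0 to 7 genes of a list, against 2.17% to 16.8% of all tested genes. The count of 7 was for the 35 tested genes of the SNARE list in KO_S47A minus KO, where the share was 16.8%. With the replicate block, KO_S47A minus KO called ESYT1, SYTL1 and SYTL5 of the related C2 proteins, NAPB, RAB3A, RIMS1, VAMP2 and VAMP4 of the SNARE list and PTPRN2 of the dense-core list, among 22.1% of all tested genes. Of these, RAB3A fell and the others rose.

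Of 6 neuroendocrine regulators, POU3F2 alone had more than 5 counts in any library. Their summed level was 0.254 to 0.720 CPM in KO_S404A, 0.182 to 0.408 in KO_S47A, 0.215 to 0.702 in KO_WT and 0.216 to 0.514 in KO, against 0.10 to 0.373 CPM in Scramble. The summed level of 11 prostate luminal markers was 5700 to 6636 CPM in KO_S404A, 5915 to 7613 in KO_S47A, 6813 to 7137 in KO_WT and 5903 to 6763 in KO, against 7994 to 8380 CPM in Scramble. The luminal sum, like that of the dense-core list, separates Scramble from the other lines as SYT4 does. KLK2, an androgen-driven kallikrein of that list, averaged 470 CPM in KO, against 872 CPM in Scramble (edgeR adjusted p = 0.00193), and the part of these markers in the SYT4 result was not tested. Of 9 markers of stroma, endothelium and blood, CD68 and COL1A1 alone were above 1 CPM in any library. Their sum was 26.2 to 31.3 CPM in KO_S404A, 24.5 to 30.9 in KO_S47A, 21.7 to 28.0 in KO_WT and 20.2 to 23.6 in KO, against 19.4 to 23.9 CPM in Scramble. COL1A1, a collagen of fibroblasts, rose in KO_S47A, at 19.6 CPM in KO_S47A, against 11.6 CPM in Scramble (log2 fold change 0.76, edgeR adjusted p = 0.0389). In this list CD3E was at 0 and PTPRC, PECAM1 and CDH5 had at most 1 count in any library.

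The genes next to SYT4 on chromosome 18, in the order of the RefSeq annotation, were not called in KO minus Scramble. RIT2, a small GTPase and the nearest before it, averaged 0.192 CPM in KO, against 0.310 CPM in Scramble (log2 fold change -0.67, SE 0.82, edgeR adjusted p = 0.838). PIK3C3, the lipid kinase of autophagy, averaged 23.5 CPM in KO, against 23.2 CPM in Scramble (log2 fold change 0.02, edgeR adjusted p = 0.978). SETBP1, a SET-binding nuclear protein and the nearest after SYT4, averaged 22.5 CPM in KO, against 18.6 CPM in Scramble (log2 fold change 0.28, edgeR adjusted p = 0.598). Farther out, CELF4, KIAA1328 and EPG5 had log2 fold changes of -0.36, -0.12 and 0.25, and SLC14A2 and SLC14A1 had at most 7 and 4 counts in a library and were not tested. A low level of RIT2 leaves a wide interval for it.

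**Figure D5:**
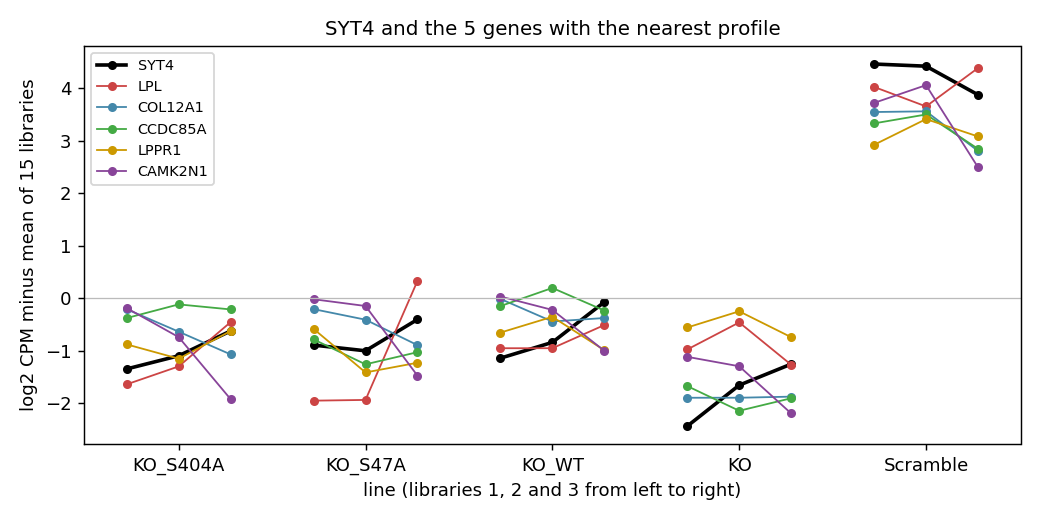
Centred log2 CPM of SYT4 and of the 5 genes with the most similar profile in each of the 15 libraries, with the lines in the order KO_S404A, KO_S47A, KO_WT, KO and Scramble. All 6 genes are high in the Scramble libraries and low in the others.

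By the root mean square difference of centred log2 CPM over the 15 libraries, the 5 profiles most like that of SYT4 among 12084 genes were LPL at 0.708, COL12A1 at 0.717, CCDC85A at 0.776, LPPR1 at 0.903 and CAMK2N1 at 0.956, against a median of 2.21 over the genes ranked. LPL, lipoprotein lipase, averaged 0.312 CPM in KO_S404A, 0.389 CPM in KO_S47A, 0.379 CPM in KO_WT, 0.359 CPM in KO and 11.9 CPM in Scramble. COL12A1, a collagen, averaged 4.00 CPM in KO_S404A, 4.35 CPM in KO_S47A, 5.04 CPM in KO_WT, 1.61 CPM in KO and 61.8 CPM in Scramble. In each of the 5 genes all libraries of the 4 other lines lay below all those of Scramble. They were chosen for a profile near that of SYT4, so this separation is not a separate result.

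CCDC85A averaged 2.41 CPM in KO_S404A, 1.39 CPM in KO_S47A, 2.74 CPM in KO_WT, 0.735 CPM in KO and 27.3 CPM in Scramble. CAMK2N1, an inhibitor of the calcium/calmodulin-dependent kinase CaMKII, averaged 4.37 CPM in KO_S404A, 5.67 CPM in KO_S47A, 6.00 CPM in KO_WT, 2.72 CPM in KO and 89.7 CPM in Scramble. LPPR1 averaged 0.373 CPM in KO_S404A, 0.330 CPM in KO_S47A, 0.443 CPM in KO_WT, 0.493 CPM in KO and 6.64 CPM in Scramble. COL12A1, CCDC85A and CAMK2N1 share with SYT4 a lower mean in KO than in each line with an added protein, which LPL and LPPR1 do not.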

How the data were processed

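Counts per gene are raw whole numbers as deposited by the authors. FPKM values, also deposited by the authors, served only to derive gene lengths. STAR and CASAVA are named in the submitters' processing notes. The build, annotation and strand setting behind the counts were not stated in the sources used here, so overlapping and antisense genes cannot be told apart. Unassigned reads, 13.2% to 20.6% of a library, were left out.

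In R 4.3.3, edgeR 4.0.16 (filterByExpr, TMM, 1 mean per line, quasi-likelihood test) was fitted to all 15 libraries and 14246 genes, with 10 residual degrees of freedom, and 10 comparisons were made. P-values were adjusted by Benjamini-Hochberg within a comparison and called under 0.05. SE is the absolute log2 fold change over the square root of F, and intervals are 95%, with a median halfwidth of 0.36 over all genes in KO minus Scramble. Labels give every line replicate numbers 1 to 3. Deviations from line means of same-numbered libraries correlated over 0.1 in all 3 pairs in 8 of 10 comparisons (0.126 to 0.675), so the numbers were taken to pair libraries there, from the data and not the labels. The exceptions were KO_S404A with KO and with Scramble (lowest 0.0197 and 0.0743). Of 60 pairs of libraries with unlike numbers in different lines, 18 also passed 0.1 (up to 0.427), all between numbers 1 and 2. The correlations thus set library 3 apart and do not show that number 1 pairs with 1 or 2 with 2. The main fit has no term for the number, so its calls are unpaired, and only the replicate block adds that term. Libraries of a line differed beyond sampling noise, with chi-square per degree of freedom of 8.11 to 239. Profiles used log2 CPM with a prior count of 2 and genes averaging at least 1 CPM.

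Named are all members, the other synaptotagmins, PNPLA2, called list genes, neighbours of SYT4 and the 5 nearest profiles. Members and lists were chosen with earlier results of these data known. Alternatives were DESeq2 1.42.0, RLE scaling, no filter, a replicate block, only the lines compared, libraries 1 and 2 only, and leaving out each library. The fit was tested on simulated data.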

Additional observations from a re-analysis of the deposited data

How the results depend on the processing

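No gene reversed direction where it was called in either fit. Over 56 single-gene results and 669 alternative values, 565 kept direction and side of the threshold, 86 lost a call, 4 gained one and 14 reversed. As a description, the SYT4 log2 fold change in KO minus Scramble ran from -6.38 to -5.80 when 1 library was left out. With the replicate block, SYT17 was called in KO minus Scramble. SYT4, chosen with the KO libraries, was called by the block in KO_S47A minus KO. With libraries 1 and 2 only, 2 members were called in KO_S47A minus KO (SYT4 and SYT7). There 21.6% of all tested genes were called, against 0.00702% with all libraries. The block moved calls over all genes to 1181 in KO minus Scramble, against 383 without it, and to 3150 in KO_S47A minus KO, against 1. Among all genes it gave 15 in KO_WT minus KO against 4, 3 in KO_S47A minus KO_WT against 0, 2 in KO_S404A minus KO_S47A against 1, 2783 in KO_S47A minus Scramble against 544 and 1429 in KO_WT minus Scramble against 494. Where the numbers did not count as pairing, it gave 14 in KO_S404A minus KO against 3 and 1522 in KO_S404A minus Scramble against 443. The block changed no other call of a member. DESeq2 called 689 genes in KO minus Scramble and 33 in KO_S47A minus KO.

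Reversals concerned small differences that were not called. With libraries 1 and 2 only, the log2 fold change was 0.065 for SYT7 in KO minus Scramble, 0.045 for SYT4 in KO_S47A minus KO_WT, 0.060 for SYT9 in KO_S404A minus KO_S47A and 0.16 for SYT17 in KO_WT minus Scramble, and with the replicate block it was 0.0032 for SYT7 in KO minus Scramble. With 1 library left out, SYT17 ran from -0.58 to 0.0096 in KO_S404A minus KO_WT, from -0.59 to 0.036 in KO_S404A minus Scramble and from -0.22 to 0.28 in KO_WT minus Scramble. SYT4 ran from -0.36 to 0.25 in KO_S47A minus KO_WT, SYT7 from -0.13 to 0.082 in KO minus Scramble and SYT9 from -0.33 to 0.084 in KO_S404A minus KO_S47A. The cause was not tested. Low counts limit SYT1, SYT2, SYT3, SYT5, SYT11, SYT12 and SYT13.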
